A study of Homo sapiens with 9 samples.

Results

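The genes described here encode the 5 enzyme complexes of oxidative phosphorylation and cytochrome c. They were taken by symbol as protein-coding genes of the NDUF, SDH, UQCR, COX4 to COX8 and ATP5 families, the mitochondrially encoded MT-ND, MT-CO, MT-ATP and MT-CYB genes, CYC1 and CYCS. This gave 102 genes of 59563 named genes in the files, of which 19364 are protein-coding. Of the 102 genes, 89 are nuclear and 13 lie on mitochondrial DNA. The nuclear genes comprise 37 of complex I, 4 of complex II, 10 of complex III, 19 of complex IV, 18 of complex V and CYCS. NDUFA4 and its paralogue NDUFA4L2 were placed in complex IV, where the NDUFA4 protein sits, although their symbols name complex I. The symbol rule used no measured value, but the genes were chosen with earlier results of these data known. Genes were therefore tested one by one, and the set as a whole was not tested.

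Complexes I and II pass electrons from NADH and succinate to ubiquinone, complex III passes them on to cytochrome c, and complex IV hands them to oxygen. The proton gradient built up by complexes I, III and IV drives ATP synthesis in complex V. Complex II is also an enzyme of the tricarboxylic acid cycle and is wholly encoded in the nucleus, whereas the other complexes join nuclear subunits to subunits made on mitochondrial ribosomes, and leukaemic myeloid cells are known to rely on this respiration.

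MOLM13 is an established human acute myeloid leukaemia line, and all 9 libraries came from it. The 3 groups received the solvent DMSO alone, 1 µM iberdomide (CC-220) or 50 nM mezigdomide (CC-92480) dissolved in DMSO, for 72 h, with 3 libraries each. The drugs are cereblon ligands that direct a ubiquitin ligase to the Ikaros family of transcription factors. Poly(A) RNA was read as 37 bp read pairs, and the library depths recovered from the deposited means ran from about 20900000 to 25300000 counted reads. The deposited tables give, for each gene, a mean normalised count over all 9 libraries, a log2 fold change over DMSO, its standard error (SE) and an adjusted p, so that the spread between libraries enters only through the SE. Adjusted p-values are those of the Wald test run by the authors, Benjamini-Hochberg adjusted, and a gene was called at an adjusted p under 0.05. Separate cultures are not stated in the labels, so a p-value here reflects only how much these 9 libraries varied, possibly for technical reasons. All 10 myeloid markers had means from 1644 to 23353 normalised counts, while HBA1 and HBB of red cells and DCN of fibroblasts were listed at 0. Of the markers of other cell types, TRAC (T cells, 409), KRT18 (epithelium, 207), COL1A1 (fibroblasts, 101) and KRT8 (epithelium, 45.1) were among those with counts. COL1A1 rose by 1.41 (iberdomide) and 1.49 (mezigdomide) on the log2 scale and KRT18 fell after mezigdomide, at -0.43 (SE 0.16, Wald adjusted p = 0.0301), in the authors' deposited table. The part of these genes in the results was not tested.

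Promoters are shown for NDUFS6 and NDUFS8, because these were the only nuclear complex I genes called after a drug. The sequences come from RefSeq on GRCh38.p14, read 5′ to 3′ on the + strand, and cover chr5:1801157-1801399 (NDUFS6) and chr11:68030431-68030616 (NDUFS8), which lie before the first annotated base of each gene in GENCODE 29. Capitals mark a match to CGCANGCG, the motif of nuclear respiratory factor NRF1.
NDUFS6: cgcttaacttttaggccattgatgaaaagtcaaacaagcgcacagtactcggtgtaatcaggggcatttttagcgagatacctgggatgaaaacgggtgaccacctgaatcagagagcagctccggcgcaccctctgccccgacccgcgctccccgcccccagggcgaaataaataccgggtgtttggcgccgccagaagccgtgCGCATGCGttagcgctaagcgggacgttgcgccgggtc
NDUFS8: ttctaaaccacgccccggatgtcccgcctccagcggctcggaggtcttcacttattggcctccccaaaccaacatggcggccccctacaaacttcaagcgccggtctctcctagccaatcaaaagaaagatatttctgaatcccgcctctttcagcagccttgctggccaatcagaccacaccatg
The NDUFS6 match lies 45 to 38 bases before the RefSeq start and, being a palindrome there, reads the same on both strands. The NDUFS8 stretch, which stops 64 bases short of the RefSeq start, held no exact match to the motifs searched. Variants of these motifs were not searched. Windows from 250 bases before to 50 bases after a start were given for 68 of the 102 genes, as 81 windows, and were compared with 22198 windows of protein-coding genes. On either strand, the NRF1 motif stood in 32.1% of the 81 windows and in 12.8% of the others, and CCGGAAG, bound by ETS factors such as GABP, in 25.9% and 12.8%. The YY1 motif AAGATGGC stood in 16% and 3.53%, and the Ikaros motif TTGGGAA in 8.64% and 4.50%. These shares describe letters in the windows and were not set against the fold changes. COX7B, NDUFA12, NDUFA5, NDUFB4, NDUFB8 and UQCRC2 held the Ikaros motif.

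The first question was which of these transcripts differed after each drug. Most did not pass the test, and all of those that did were lower. Of 98 genes tested after iberdomide, 1 was lower (NDUFA4L2) and 0 were higher, while 14.1% of all 19497 tested genes were called, 6.77% lower and 7.3% higher. After mezigdomide 4 of 98 were lower (NDUFA4L2, NDUFS8, NDUFS6 and MT-ATP8) and 0 were higher, while 21.2% of all 20819 tested genes were called, 10.7% lower and 10.4% higher. The called shares among these genes thus lay under the background in both comparisons, by the authors' deposited table. At an unadjusted Wald p under 0.05, 2 were lower and 3 higher after iberdomide, and 17 were lower and 1 higher after mezigdomide. Of the 102 genes, 31 overlap another annotated gene over 10% or more of their exon bases (16 on the same strand, 16 on the opposite strand), and their values are uncertain where reads could be split. COX4I2, COX6A2 and COX7B2 were listed at 0 and COX8C, at a mean of 0.442 normalised counts, was not tested. In bulk RNA, fewer cells of a type and less RNA per cell cannot be told apart, and this holds for every fold change given here.

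The fold changes were small in either direction. The median log2 fold change over the 98 genes was -0.042 after iberdomide and -0.12 after mezigdomide, beside -0.0095 and -0.0070 over all tested genes. After mezigdomide 81 of the 98 genes (82.7%) lay below 0, beside 51.2% of all tested genes, and after iberdomide 60 of 98 (61.2%) did, beside 51.8%. The genes share libraries and normalisation, so these counts are descriptions. The downward shift was not confined to these genes. Medians were also taken over protein-coding genes of at most 1000 bases with a mean of 1000 to 10000 normalised counts. After mezigdomide they were -0.14 for 48 of the genes described here and -0.18 for 318 others, and after iberdomide -0.043 and -0.084. For 94 genes at 100 or more normalised counts on average, all 94 intervals (95%) after iberdomide lay within 1.5-fold of no change, as did those of 85.8% of all protein-coding genes at that level. After mezigdomide 85 of 94 (90.4%) did, beside 78.6%, and the 9 others reached beyond a 1.5-fold fall. These were NDUFA3, NDUFA11, NDUFB7, NDUFC2, NDUFS6, NDUFS8, UQCRQ, MT-ATP8 and ATP5ME. No interval at that level reached a 1.5-fold rise after either drug.

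**Figure D1:**
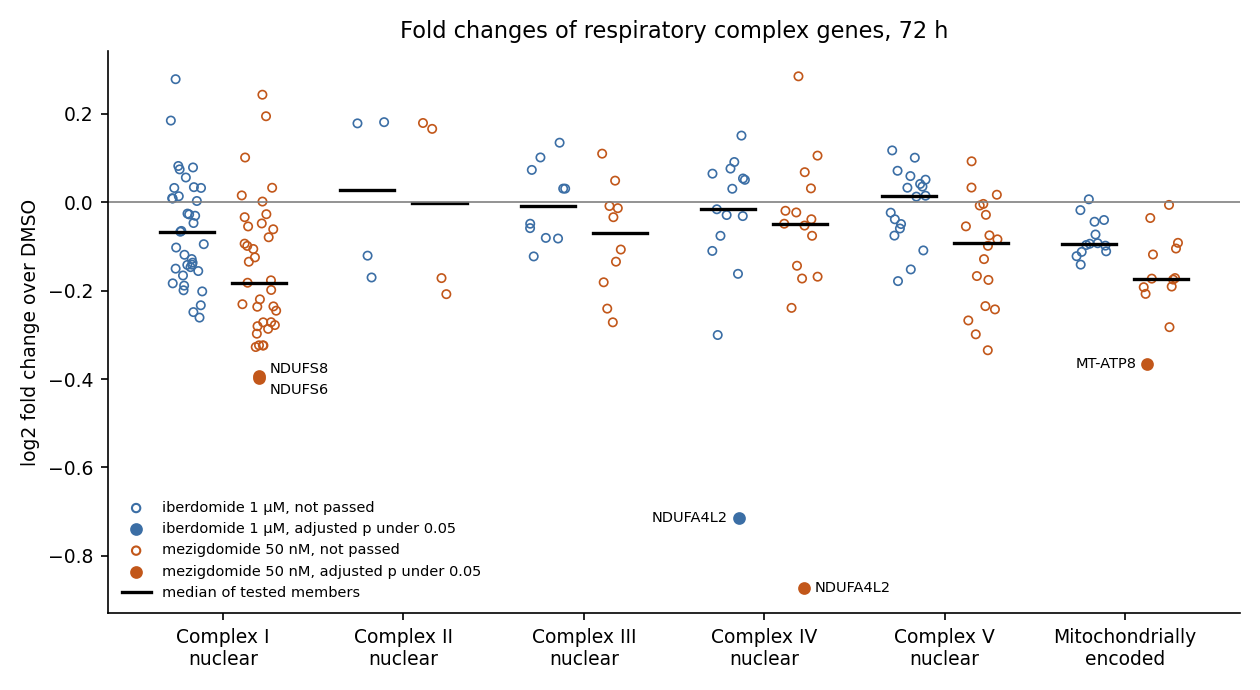
Log2 fold change over DMSO of each tested gene (points, iberdomide in blue, mezigdomide in orange) by complex and genome, with filled points for genes called at an adjusted p under 0.05 and bars for medians. NDUFA4L2 lay lowest after both drugs, the nuclear complex I median after mezigdomide was -0.18, and all 13 mitochondrially encoded genes lay below 0 after mezigdomide.

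In the deposited fold changes complex I, the NADH dehydrogenase, had the lowest median of the nuclear complexes. Its 37 nuclear genes had medians of -0.067 after iberdomide and -0.18 after mezigdomide, with 0 called after iberdomide and 2 lower and 0 higher after mezigdomide. The 7 core subunits, which carry the flavin and iron-sulphur clusters, had medians of -0.18 and -0.28, and the 30 accessory subunits -0.056 and -0.16. Whether these medians differ from those of other complexes was not tested. With a trend on GC content and transcript length removed, the nuclear complex I median after mezigdomide was -0.107. It was then no longer the lowest, beside -0.112 for complex II.

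NDUFS8, a core subunit that binds 2 iron-sulphur clusters (chromosome 11, 68030617 to 68036644, GRCh38), fell by 0.40 on the log2 scale after mezigdomide (SE 0.13, Wald adjusted p = 0.0152) in the authors' deposited table. Its levels implied by the mean and both fold changes were 1796 (DMSO), 1499 (iberdomide) and 1364 (mezigdomide) normalised counts. Iberdomide gave -0.26 (SE 0.13, Wald adjusted p = 0.207) in the authors' deposited table, without passing. NDUFS6, an accessory subunit with a zinc site (chromosome 5, 1801400 to 1816605), fell by 0.39 after mezigdomide (SE 0.15, Wald adjusted p = 0.0359) in the authors' deposited table. Its implied levels were 2227, 1895 and 1695 normalised counts in the same order, so that both genes stood lowest after mezigdomide. Neither call held under every setting. With a trend on GC content and transcript length removed, NDUFS8 stood at -0.19 (normal test, adjusted p = 0.372) and NDUFS6 at -0.34 (adjusted p = 0.0912), and NDUFS6 also missed the threshold when p-values were adjusted over every gene (0.0608).

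Among the other core subunits, the values after mezigdomide in the authors' deposited table were -0.32 for NDUFS7 (SE 0.13), -0.29 for NDUFV2 (SE 0.14), -0.28 for NDUFV1 (SE 0.12) and -0.27 for NDUFS3 (SE 0.14). None of these passed, with Wald adjusted p-values of 0.0613, 0.156, 0.0803 and 0.16 in the authors' deposited table. NDUFV1 binds NADH and flavin, NDUFV2 and NDUFS7 carry iron-sulphur clusters, and NDUFS3 belongs to the arm that reaches into the matrix. NDUFS7 passed when p-values were adjusted over genes with a mean of at least 50 (0.0428) or over protein-coding genes (0.0440). It shares 49.1% of its exon bases with genes on the opposite strand, and the kit is not stated to keep strand, so its value is uncertain. NDUFV2 is uncertain too, since 28.4% of its exon bases are shared on the same strand and its pseudogenes held reads amounting to 9.53% of its own. NDUFS1, the largest subunit, lay on the other side of 0, at 0.10 (SE 0.076, Wald adjusted p = 0.409) in the authors' deposited table.

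The accessory subunits ran from -0.39 (NDUFS6) to 0.24 (NDUFB5) after mezigdomide in the authors' deposited table. NDUFB5, a membrane-arm subunit, had the highest value of all 102 genes after iberdomide, 0.28 (SE 0.14, Wald adjusted p = 0.191) in the authors' deposited table, without passing. Its implied levels were 2542, 3084 and 3010 normalised counts in DMSO, iberdomide and mezigdomide, higher in both drug groups than in DMSO. NDUFB5 was named after its values were seen.

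Complex II, the succinate dehydrogenase, had medians of 0.029 and -0.0028 over its 4 genes, and 0 were called. The catalytic subunits and the membrane anchors lay on opposite sides of 0. After mezigdomide the flavoprotein SDHA stood at -0.21 (SE 0.096, Wald adjusted p = 0.116) and the iron-sulphur subunit SDHB at -0.17 (SE 0.14, Wald adjusted p = 0.468) in the authors' deposited table. The anchors SDHC and SDHD stood at 0.18 (SE 0.073, Wald adjusted p = 0.0613) and 0.17 (SE 0.12, Wald adjusted p = 0.376) in the authors' deposited table. After iberdomide the values in the authors' deposited table were -0.17 for SDHA, -0.12 for SDHB, 0.18 for SDHC and 0.18 for SDHD. Implied SDHC levels were 1862, 2111 and 2108 normalised counts, higher in both drug groups. SDHC passed as higher after mezigdomide under 3 other settings, and its sign turned, to -0.084, once the trend on GC content and length was removed. SDHA has pseudogenes with reads amounting to 7.69% of its own.

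Complex III, the ubiquinol to cytochrome c reductase, had nuclear medians of -0.0089 and -0.070 over 10 genes, and 0 were called after either drug. After mezigdomide the Rieske iron-sulphur protein UQCRFS1 stood at -0.24 (SE 0.14, Wald adjusted p = 0.264), the core protein UQCRC1 at -0.11 (SE 0.11, adjusted p = 0.603) and the core protein UQCRC2 at 0.11 (SE 0.062, Wald adjusted p = 0.223) in the authors' deposited table. UQCRC2 also had one of the few unadjusted p-values under 0.05 after iberdomide, at 0.13 (SE 0.062, Wald adjusted p = 0.15) in the authors' deposited table. CYC1, the cytochrome that hands electrons on, was measured with a small error and stood at 0.031 (SE 0.068) and -0.034 (SE 0.068) after iberdomide and mezigdomide in the authors' deposited table. CYCS, the soluble cytochrome c that also triggers apoptosis when released, stood at -0.019 (SE 0.13) and -0.063 (SE 0.13) in the authors' deposited table. UQCRH and its retrocopy UQCRHL, which may share reads, stood at -0.0084 (SE 0.13) and -0.013 (SE 0.15) after mezigdomide in the authors' deposited table.

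Complex IV, cytochrome c oxidase, has tissue-specific isoforms of several subunits, and the line used the common ones. COX4I1, at a mean of 7226 normalised counts, had its lung and hypoxia isoform COX4I2 listed at 0. COX6A1 (1362) stood beside COX6A2 at 0, and COX7B (2521) beside the testis isoform COX7B2 at 0. COX6B1 had a mean of 3722 normalised counts and COX6B2 of 5.74, and COX7A2 of 4233 against 7.29 for the muscle isoform COX7A1. COX8A had a mean of 3466 normalised counts. COX7A2L, which helps complexes III and IV join, had 2683. The medians over the 15 tested nuclear genes were -0.016 after iberdomide and -0.049 after mezigdomide. Among the common isoforms the lowest value after mezigdomide in the authors' deposited table was -0.24 (COX6B1, SE 0.14, Wald adjusted p = 0.234) and the highest 0.11 (NDUFA4, SE 0.13, adjusted p = 0.648).

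NDUFA4L2 was the exception in complex IV and the gene with the lowest fold change of the 98. It is a paralogue of NDUFA4 known as a target of the hypoxia-inducible factors (chromosome 12, 57234903 to 57240715, - strand). Implied levels were 73.0 normalised counts in DMSO, 44.5 after iberdomide and 39.9 after mezigdomide, so that both drug groups stood below DMSO. It fell to 0.609 of DMSO after iberdomide (log2 -0.72, SE 0.21, Wald adjusted p = 0.00653) in the authors' deposited table. It fell to 0.546 of DMSO after mezigdomide (log2 -0.87, SE 0.21, Wald adjusted p = 0.000343) in the authors' deposited table. It passed under every other setting tried, with adjusted p-values of 0.00471 to 0.0305 after iberdomide and 0.000231 to 0.00908 after mezigdomide. Its mean was 52.5 normalised counts, and per kb of coding sequence it had 201 normalised counts where NDUFA4 had 9836. The deposited fold changes are shrunken, which understates low genes, so the ratios and implied levels of NDUFA4L2 are approximate. NDUFA4 itself did not pass after iberdomide, at 0.15 (SE 0.13, Wald adjusted p = 0.552) in the authors' deposited table.

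Complex V, the ATP synthase, had nuclear medians of 0.014 and -0.091 over 18 genes, and 0 were called. The catalytic head subunits ATP5F1A and ATP5F1B stood at 0.017 (SE 0.090) and 0.093 (SE 0.076) after mezigdomide in the authors' deposited table. The stalk subunits ATP5F1C, ATP5F1D and ATP5F1E stood at -0.028 (SE 0.11), -0.30 (SE 0.14, Wald adjusted p = 0.109) and -0.099 (SE 0.15) in the authors' deposited table. The 3 genes for the proton-carrying ring subunit encode the same mature protein, and ATP5MC1, ATP5MC2 and ATP5MC3 stood at -0.054, -0.0073 and -0.13 in the authors' deposited table. After iberdomide ATP5F1A, ATP5F1B, ATP5F1C, ATP5F1D and ATP5F1E stood at 0.051, 0.12, 0.035, -0.15 and 0.013 in the authors' deposited table. The lowest nuclear value of the complex after mezigdomide was -0.33 (SE 0.20, Wald adjusted p = 0.252) in ATP5ME in the authors' deposited table, a gene that shares 61.6% of its exon bases with the opposite strand.

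**Figure D2:**
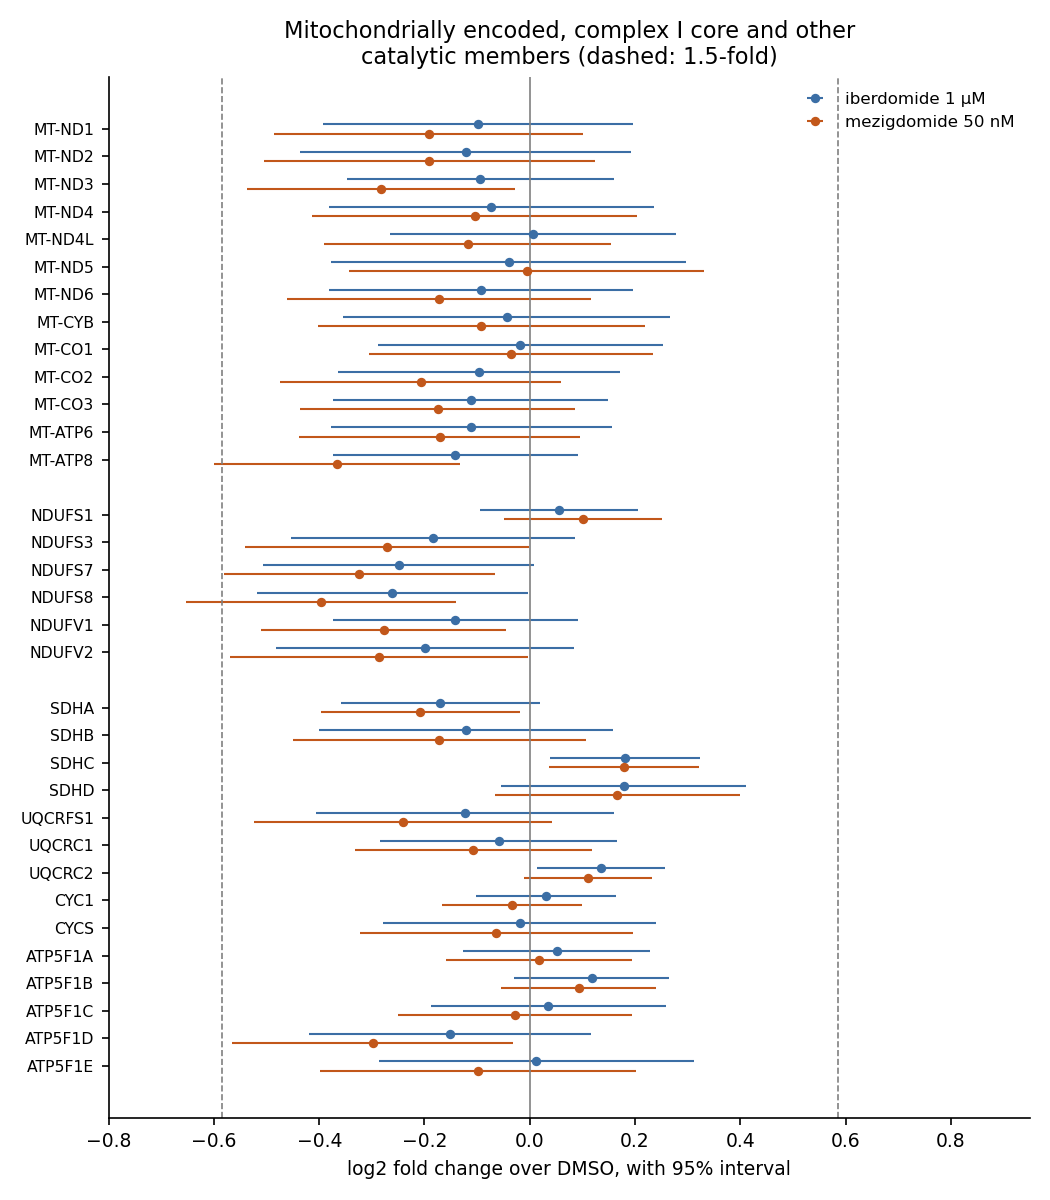
Log2 fold change over DMSO with its 95% interval for the 13 mitochondrially encoded genes, nuclear core subunits of complex I and other catalytic genes, iberdomide in blue and mezigdomide in orange, with dashed lines at 1.5-fold. After mezigdomide the intervals of NDUFS8 and MT-ATP8 lay wholly below 0 and reached past the lower dashed line, and after iberdomide none reached a dashed line.

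The 13 mitochondrially encoded genes are copied as long joint transcripts that are then cut into messages, and all but 1 had a value below 0 after both drugs. After iberdomide they ran from -0.14 (MT-ATP8) to 0.0067 (MT-ND4L) in the authors' deposited table, and 0 were called. After mezigdomide they ran from -0.37 (MT-ATP8) to -0.0060 (MT-ND5) in the authors' deposited table, and 1 was called. MT-ATP8, a small membrane subunit of complex V (mitochondrial DNA, 8366 to 8572), fell by 0.37 after mezigdomide (SE 0.12, Wald adjusted p = 0.0134) in the authors' deposited table. Its implied levels were 1865, 1691 and 1447 normalised counts in DMSO, iberdomide and mezigdomide, lowest after mezigdomide. MT-ATP6, the proton-channel subunit on the same joint message, stood at -0.17 (SE 0.14, Wald adjusted p = 0.442) in the authors' deposited table, without passing. The intervals of this pair overlapped, at -0.60 to -0.13 for MT-ATP8 and -0.44 to 0.096 for MT-ATP6, and a difference between the pair was not tested. MT-ATP8 is uncertain because 46 of its 207 bases (22.2%) are shared with MT-ATP6 on the same strand. Its call held under every other setting tried, with adjusted p-values of 0.00236 to 0.0227.

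Among the complex I subunits, the proton-pumping membrane arm, the values after mezigdomide in the authors' deposited table were -0.19 for MT-ND1, -0.19 for MT-ND2, -0.28 for MT-ND3, -0.10 for MT-ND4, -0.12 for MT-ND4L, -0.0060 for MT-ND5 and -0.17 for MT-ND6. MT-ND3 had the lowest of these (SE 0.13, Wald adjusted p = 0.11) in the authors' deposited table, without passing. MT-ND6 is the only one encoded on the other strand, and without strand its reads cannot be told from opposite transcripts. The complex III cytochrome MT-CYB stood at -0.092 (SE 0.16) after mezigdomide in the authors' deposited table. The catalytic core of complex IV stood at -0.036 for MT-CO1 (SE 0.14), -0.21 for MT-CO2 (SE 0.14) and -0.17 for MT-CO3 (SE 0.13) in the authors' deposited table. After iberdomide the values in the authors' deposited table were -0.044 for MT-CYB, -0.018 for MT-CO1, -0.097 for MT-CO2, -0.11 for MT-CO3 and -0.11 for MT-ATP6. The rRNA genes MT-RNR2 and MT-RNR1, which are no members of the complexes, stood at -0.067 (SE 0.12) and -0.061 (SE 0.11) after mezigdomide in the authors' deposited table and did not pass.

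Mitochondrially encoded and nuclear genes were then set side by side. The medians were -0.094 and -0.029 after iberdomide, and -0.17 and -0.11 after mezigdomide, with 1 of 13 and 3 of 85 called after mezigdomide. Within complex I the mitochondrially encoded and nuclear medians after mezigdomide were -0.17 and -0.18, within complex IV -0.17 and -0.049, and within complex V -0.27 (2 genes) and -0.091. The gap between genomes was therefore not of one size across complexes, and it was not tested, since the 13 genes share a few joint transcripts. The 13 genes made up 1.74% of all normalised counts, and the 89 nuclear genes 1.17%. The implied shares in DMSO, iberdomide and mezigdomide were 1.82%, 1.72% and 1.67% for the mitochondrially encoded genes and 1.19%, 1.18% and 1.13% for the nuclear genes. Both shares were lowest after mezigdomide, with no error available for the sums. Nuclear copies of mitochondrial genes held 0.0263% of counts in 98 genes with reads, little in sum beside the 1.74%. Single copies weighed more. MTATP6P1 had a mean of 2822 normalised counts beside 20208 for MT-ATP6, and MTND2P28 of 1979 beside 24499 for MT-ND2. The values of MT-ATP6 and MT-ND2 are therefore uncertain. Those of COX6A1 and UQCRFS1 are uncertain too, since their pseudogenes held reads amounting to 12.4% and 10.5% of their own.

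Levels between genes were compared per kb of coding sequence, a scale that overstates genes whose coding part is a small share of the transcript. Medians in normalised counts per kb were 4029 for nuclear complex I, 3540 for complex II, 4813 for complex III, 11388 for complex IV and 9496 for complex V, with CYCS at 20118. The mitochondrially encoded genes ran from 8176 (MT-ATP8) to 49192 (MT-CO1), so that their range overlapped those of nuclear complexes I, III, IV and V. Protein-coding genes at 100 or more normalised counts on average had a median of 837. The order of the nuclear complexes was thus IV, V, III, I and II, but the ranges overlapped, from 1034 (NDUFS7) to 10158 (NDUFB9) in complex I and from 4165 (COX6A1) to 20644 (COX7C) in complex IV.

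**Figure D3:**
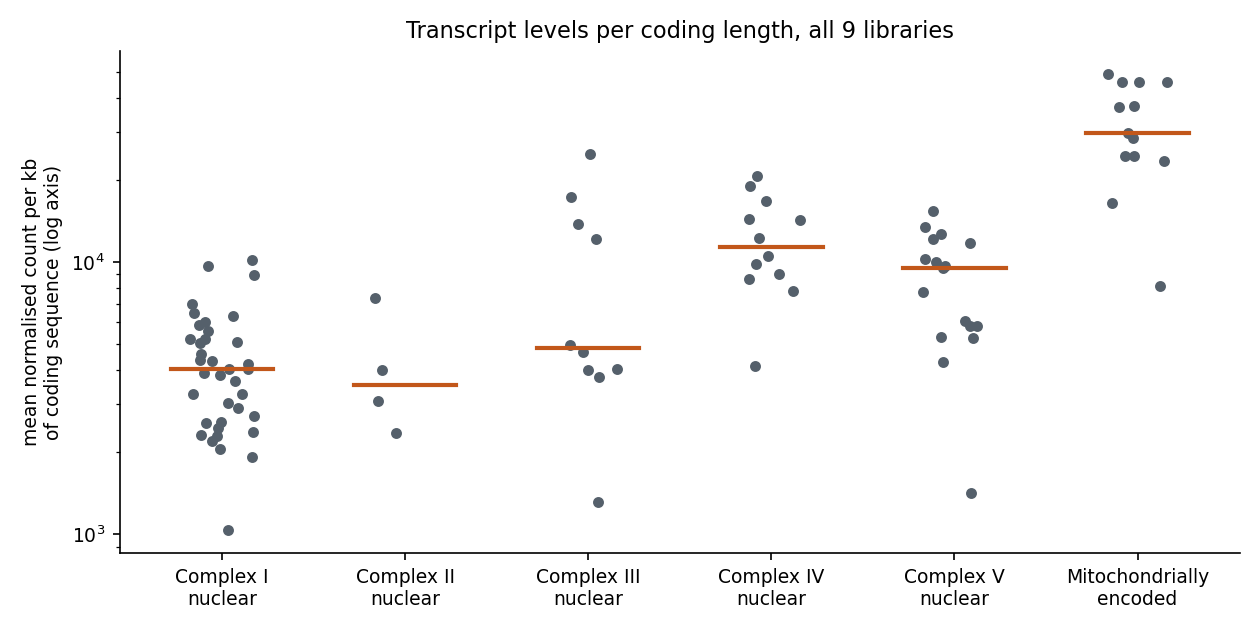
Mean normalised count per kb of coding sequence over all 9 libraries (log axis) for each gene with a mean of at least 100, by complex and genome, with bars for medians. The mitochondrially encoded genes, from 8176 to 49192, mostly lay above the nuclear genes, whose medians ran from 3540 in complex II to 11388 in complex IV.

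The doses differ, 1 µM for iberdomide and 50 nM for mezigdomide, so the drugs were compared as given. Of the 98 genes, 0 were higher and 0 lower after mezigdomide than after iberdomide by a two-sided normal test of the difference of the log2 fold changes with Benjamini-Hochberg adjustment. At an unadjusted p under 0.05 the count was 0 as well, and with an error correlation of 0.5 it was 0 after adjustment. Over all genes 0.108% were called, 0.0462% higher and 0.0615% lower, so the background was near 0 too. The test took the errors as independent, an upper limit since the DMSO libraries are shared, and at the median error a gene needed a 1.75-fold difference to pass. The median difference was -0.087, and 93 of the 98 values lay below 0, beside 50.3% of all tested genes. Other short genes showed a similar median. At 1000 to 10000 normalised counts and at most 1000 bases, it was -0.11 for 48 of these genes and -0.095 for 318 others. Spearman's rho between the difference and transcript length was 0.65 over 94 genes and 0.44 over 10082 protein-coding genes, all with a mean of at least 100. For 89 of the 94 genes at 100 or more normalised counts on average, the 95% interval of the difference lay within 1.5-fold. The others were NDUFA2, NDUFS5, UQCRQ, ATP5MD and ATP5ME, and the widest reached -0.86 on the log2 scale in ATP5ME. NDUFA4L2 had a difference of -0.16 (SE 0.30), NDUFS8 of -0.14 (SE 0.19), NDUFS6 of -0.16 (SE 0.21) and MT-ATP8 of -0.22 (SE 0.17), each with an adjusted p above the threshold. Thus genes called after mezigdomide and not after iberdomide were not shown to differ between the drugs.

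What these genes shared beyond their function was a large error for their level. In the 73 genes with a mean of 1000 to 10000 normalised counts, the median SE after mezigdomide was 0.138, beside 0.0900 for 5416 other protein-coding genes in that range. The SE of 68 of the 73 lay above the median of the others. The genes are also short, with a median transcript of 745 bases beside 3116, and 318 other genes of at most 1000 bases had a median SE of 0.126. At the median SE over the 94 genes a change had to reach 1.30-fold after iberdomide and 1.28-fold after mezigdomide to be called. Smaller shifts could be called only in genes with a smaller SE. In the same range 30.9% of the 5416 other genes and 27.0% of the 318 short ones were called after mezigdomide, beside 3 of the 73, and 17.6% and 10.7% after iberdomide, beside 0 of the 73. In 5 of the 73 genes the SE after mezigdomide lay below the median of the 5416 others. These were NDUFA10 (SE 0.062), UQCRC2 (0.062), NDUFV3 (0.071), SDHC (0.073) and NDUFS1 (0.076) in the authors' deposited table. NDUFA10 and NDUFV3 were named after their values were seen.

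**Figure D4:**
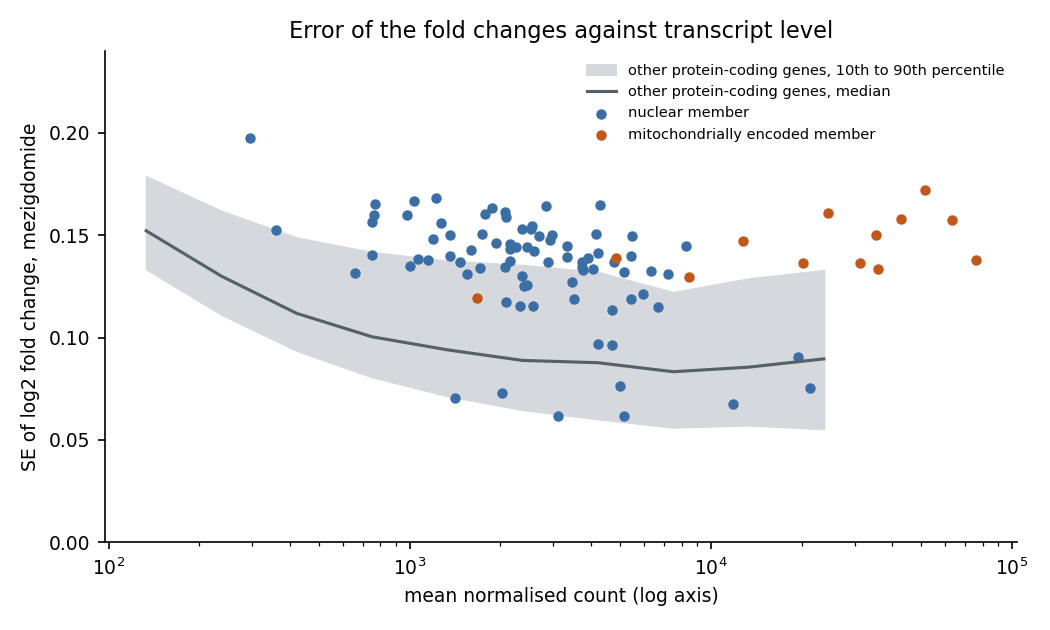
SE of the log2 fold change after mezigdomide against the mean normalised count (log axis) for nuclear (blue) and mitochondrially encoded (orange) genes, over the median (line) and the 10th to 90th percentile (band) of other protein-coding genes. Between 1000 and 10000 normalised counts 68 of 73 genes lay above the median of the others.

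Fold changes moved with GC content. Across 81 nuclear genes at 100 or more normalised counts on average, Spearman's rho between log2 fold change and GC content of the transcript was -0.52 after iberdomide and -0.54 after mezigdomide. Over 10082 protein-coding genes it was -0.23 and -0.28, and with transcript length 0.26 and 0.36, beside 0.22 and 0.39 in the 81 genes. These are descriptions across genes of the same libraries, and genes are not independent replicates. In the 27 GC-richest of the 81 genes, at 53.8% GC or more, the median after mezigdomide was -0.24. Over all protein-coding genes of that GC range, the 81 genes not left out, it was -0.12. In the 27 GC-poorest, at 45.5% or less, it was -0.034 beside 0.053. NDUFS8 has a GC content of 63.3%, NDUFS7 of 66.5% and NDUFS6 of 53.9%, while NDUFB5 has 40.3% and SDHC 42.6%. The part of GC content in the changes was not tested beyond the removal of the trend, which left NDUFA4L2 and MT-ATP8 as the only called genes after mezigdomide, against 18.8% of all genes.

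**Figure D5:**
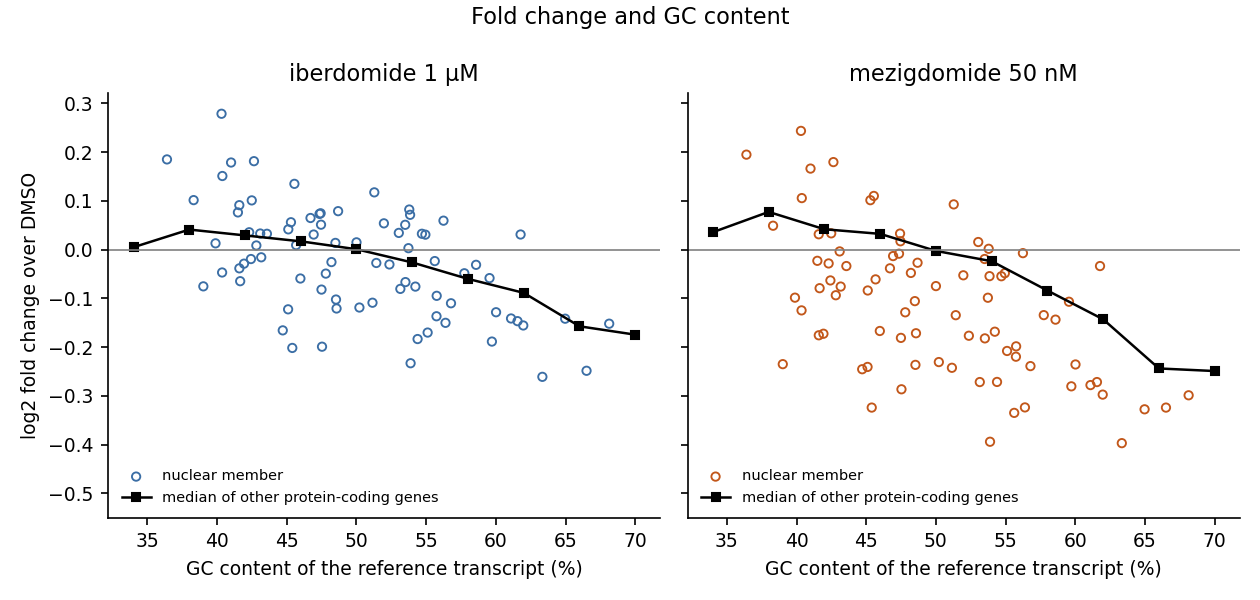
Log2 fold change over DMSO against GC content of the reference transcript (%) for 81 nuclear genes (open points), iberdomide left and mezigdomide right, with the median of other protein-coding genes by GC bin (black squares). Both the points and the line fall towards high GC, with a Spearman's rho of -0.52 and -0.54 over the points.

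Of 53 assembly factors, which build the complexes without staying in them, 1 was lower after iberdomide, and 5 were lower and 2 higher after mezigdomide, shares under the 14.1% and 21.2% of all tested genes called. The complex II factor SDHAF3 fell after both drugs, at -0.33 (SE 0.12, Wald adjusted p = 0.0481) and -0.49 (SE 0.12, Wald adjusted p = 0.00066) in the authors' deposited table. The complex I factors NDUFAF6 (-0.44, SE 0.12), NDUFAF4 (-0.40, SE 0.15) and ECSIT (-0.31, SE 0.11) and the complex V factor ATPAF1 (-0.32, SE 0.095) fell after mezigdomide in the authors' deposited table. COX15, which makes the haem A of complex IV, rose by 0.25 (SE 0.070) after mezigdomide in the authors' deposited table, and COA1 rose by 0.23 (SE 0.077).

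Of 31 genes that copy, transcribe or handle mitochondrial DNA and RNA, 2 were lower after iberdomide and 4 after mezigdomide, and 0 were higher after either, shares near the 6.77% and 10.7% of all tested genes called lower. POLRMT, the mitochondrial RNA polymerase, fell, at -0.27 (SE 0.073, Wald adjusted p = 0.00253) and -0.32 (SE 0.073, Wald adjusted p = 0.000172) in the authors' deposited table. The RNA helicase SUPV3L1 fell, at -0.19 and -0.22 (SE 0.068 in each) in the authors' deposited table. SLIRP, which with LRPPRC protects mitochondrial messages, and TBRG4 fell after mezigdomide, at -0.43 (SE 0.15) and -0.28 (SE 0.076), in the authors' deposited table. The mitochondrial transcription factor TFAM did not pass after mezigdomide, at -0.060 (SE 0.074, Wald adjusted p = 0.668) in the authors' deposited table.

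Of 12 tested nuclear regulators of respiratory genes, 2 were higher and 1 lower after iberdomide, and 3 higher and 1 lower after mezigdomide. Over all tested genes 14.1% and 21.2% were called. The coactivator PPARGC1B rose by 0.55 (SE 0.14, Wald adjusted p = 0.00142) and 0.67 (SE 0.14, Wald adjusted p = 3.17e-05) in the authors' deposited table. MYC rose by 0.19 and 0.23 (SE 0.065 in each), YY1 by 0.14 (SE 0.052) after mezigdomide, and the clock repressor NR1D1 fell by 0.41 after each drug (SE 0.13) in the authors' deposited table. The transcript of NRF1, whose motif is described above, stood at -0.14 (SE 0.081, Wald adjusted p = 0.243) after mezigdomide in the authors' deposited table.

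Of 18 tricarboxylic acid cycle genes 0 were called after iberdomide, and after mezigdomide the citrate synthase CS rose by 0.24 (SE 0.070) and the fumarase FH fell by 0.21 (SE 0.082), as given in the authors' deposited table. The share of all tested genes called was 14.1% after iberdomide and 21.2% after mezigdomide. Of 20 tested genes of ubiquinone synthesis and other electron donors, ETFDH, which brings electrons from fatty acid oxidation to ubiquinone, fell, at -0.35 (SE 0.073) and -0.31 (SE 0.072) in the authors' deposited table. PDSS2, which makes the ubiquinone tail, was the other gene lower after mezigdomide, at -0.23 (SE 0.075) in the authors' deposited table. Of the carriers and related genes (9 tested after iberdomide, 10 after mezigdomide), SLC25A4, an ADP and ATP exchanger, fell, at -0.61 (SE 0.16, Wald adjusted p = 0.00265) and -1.05 (SE 0.17, Wald adjusted p = 6.82e-09) in the authors' deposited table. The outer membrane channel VDAC1 fell by 0.18 after mezigdomide (SE 0.070) in the authors' deposited table. The more abundant exchanger SLC25A5, with a mean of 8448 normalised counts beside 131 for SLC25A4, stood at -0.053 (SE 0.11, Wald adjusted p = 0.82) after mezigdomide in the authors' deposited table and did not pass. Of 12 mitochondrial chaperones and proteases, 2 were lower after iberdomide and 6 after mezigdomide, with 0 higher. Over all tested genes 6.77% and 10.7% were called lower. The protease OMA1 fell, at -0.65 and -0.76 (SE 0.11 in each), and LONP1, which also binds mitochondrial DNA, stood at -0.37 and -0.52 (SE 0.073 in each) in the authors' deposited table. CLPP, HSPE1, TRAP1 and HSPA9 fell, at -0.40, -0.43, -0.21 and -0.19 after mezigdomide in the authors' deposited table.

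Mitochondrial ribosomal protein genes, whose products make the 13 mitochondrially encoded proteins, had 5 of 77 tested genes lower and 1 higher after iberdomide, and 20 lower and 0 higher after mezigdomide. Over all tested genes 6.77% and 10.7% were called lower, and 7.3% and 10.4% higher. The medians of the mitochondrial ribosomal protein genes were -0.15 and -0.24, beside -0.042 and -0.12 for the oxidative phosphorylation genes. Cytosolic ribosomal protein genes had 1 of 84 lower after iberdomide and 2 after mezigdomide, with 0 higher and medians of 0.052 and -0.045. The differences between these lists were not tested.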

How the data were processed

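The authors deposited 2 tables from one DESeq2 fit over 9 libraries, 1 per drug. Per the file headers, each row holds a mean signal (normalised counts), a log2 fold change over DMSO with its SE, a Wald score, a p-value, and that p-value after adjustment. The score gave back the deposited p-value as a two-sided normal p. The submitters' processing notes name STAR 2.7.5a, HTSeq 0.6.1pl and Picard 2.9.4 and the build GRCh38, with no role or order. Not given in the sources used here were strand, counting settings and the annotation release. Shrinkage of the deposited log2 fold changes understates low genes such as NDUFA4L2. The implied levels and the intervals set against 1.5-fold use the same shrunken values.

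The tables hold no values per library. The 44 second copies on chromosome Y and 92 rows naming no gene (3.39e-05% of counts) were left out. Group levels were computed from the mean and both fold changes and are approximate. Drug differences took a normal test over 19497 genes, and this script was tested on simulated data. Transcript length, GC content and overlaps came from GENCODE 29 for all 102 genes. The alternatives were other sets of genes for adjustment, centring, and removal of a GC and length trend (regression splines with 4 degrees of freedom). Named genes were all mitochondrially encoded, catalytic and isoform genes and all called genes, and up to 6 called genes of each other list by size; some of them are not reported here. Members and lists were chosen with earlier results of these data known. Computation used Python 3.11.15, pandas 2.3.3, scipy 1.17.1 and statsmodels 0.14.6.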

Additional observations from a re-analysis of the deposited data

How the results depend on the processing

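Over the alternative settings, 96 summary values were counts within 1.5 times the reported one or medians within 1 SD of the spread over members, and 5 moved. The bound on medians was wide, so this tally says little about their stability. The nuclear complex I median after mezigdomide counted as unmoved, though it went from -0.18 to -0.107 with the GC and length trend removed. Some medians near 0 that counted as unmoved changed sign after iberdomide with the trend on GC content and length removed (complex II from 0.029 to -0.044, complex III from -0.0089 to 0.0039 and complex IV from -0.016 to 0.0035). That of complex II after mezigdomide went from -0.0028 to 0.011 after centring on the median of genes with a mean of at least 100. The count of genes higher after mezigdomide rose from 0 to 1 (SDHC) with p-values adjusted over genes with a mean of at least 50, with protein-coding genes only (1) and after centring on the median (1). The count lower after mezigdomide went from 4 to 2 with the GC and length trend removed, and was 3 over every gene with a p-value and 5 over genes with a mean of at least 50 or over protein-coding genes. With that trend removed, an alternative chosen for the medians after seeing the data, the complex II median after mezigdomide moved from -0.0028 to -0.11, and SDHC turned from 0.18 to -0.084 (normal test, adjusted p = 0.513). Its reference transcript has 13566 bases. The causes were not tested. Placing NDUFA4 and NDUFA4L2 in complex I or taking only genes with a mean of at least 100 moved no median by more than the spread over members, though the complex IV median after iberdomide changed sign under the latter, to 0.041. No paired analysis was possible because the tables hold no values per library, so the replicate block and leaving out each replicate were not run. Among the called genes NDUFA4L2 had the lowest mean (52.5 normalised counts).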

Other observations

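Because NDUFA4L2 is known as a target of the hypoxia-inducible factors, other genes of that response were listed after its values were seen, and they are given as values only. Of 21 tested after iberdomide 6 were lower and 1 higher, and of 22 tested after mezigdomide 10 were lower and 1 was higher in the authors' deposited table. Over all tested genes 6.77% and 10.7% were called lower, and 7.3% and 10.4% higher. The vessel growth factor VEGFA fell, at -1.23 (SE 0.14) and -1.37 (SE 0.14) in the authors' deposited table. The mitophagy receptor BNIP3 fell, at -0.49 and -0.71 (SE 0.13 in each), and PFKFB4, a regulator of glycolysis, stood at -0.67 and -0.73 (SE 0.19 in each) in the authors' deposited table. The glucose transporter SLC2A1 fell, at -0.40 and -0.50 (SE 0.094 in each), and PDK1, which restrains the entry of pyruvate carbon into the cycle, stood at -0.33 and -0.45 (SE 0.11 in each) in the authors' deposited table. MXI1, a MYC antagonist, rose by 0.75 and 0.85 (SE 0.068 in each) in the authors' deposited table. The motif ACGTG of these factors, added after seeing the data, stood in 24.7% of the 81 promoter windows and in 23.0% of the windows of protein-coding genes.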
